A study of Homo sapiens with 32 samples.

Results

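The 9 genes described here move cholesterol out of, into and within the cell. They were picked by gene symbol from the 18583 genes with values. The list of symbols was drawn up with earlier results of these data known. The transporters ABCA1, ABCG1 and ABCG4 pass cholesterol from the plasma membrane to lipoprotein particles outside the cell. APOE, apolipoprotein E, is one of the proteins that accept it. SCARB1 is the receptor that takes up cholesterol esters from high-density lipoprotein, and MYLIP is a ubiquitin ligase that limits lipoprotein uptake. NPC1 and NPC2 carry free cholesterol out of lysosomes, and SOAT1 turns it into esters for storage in lipid droplets. When sterols build up in a cell, oxysterols activate the nuclear receptors LXRα and LXRβ, which raise transcription of ABCA1, ABCG1, MYLIP and APOE, while the transcription factor SREBP2 is held back and synthesis and uptake fall. Granulosa cells use cholesterol from lipoproteins to make progesterone.

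RNA came from HGrC1, a human cell line made by immortalizing granulosa cells that had not luteinized. Granulosa cells line the ovarian follicle around the egg. From each of 4 frozen vials, cultures were set up with the solvent alone (control, 0.05% DMSO) or with PFOS, a persistent perfluorinated surfactant. The PFOS concentrations were 0.01 µM, 0.1 µM and 1 µM, re-dosed at each passage, and 1 library per culture was made after 6 weeks and 1 after 12 weeks. This gives 8 groups of n = 4 and 32 libraries, all of them grown in 10% serum, which brings lipoproteins with it, and with a steroid at 100 nM that the labels name estradiol and the study's methods name testosterone. All 8 groups come from 1 cell line, and the time points share whatever was handled per harvest, so time in culture and harvest cannot be told apart. The libraries held between 17907057 and 18553350 counts, with a median of 18161005.

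The granulosa cell label was checked on 13 markers, of which 12 had values. GATA4 (median 74.1 TPM), WT1 (37.3 TPM), FST (17.9 TPM), AMH (13.5 TPM) and KITLG (12.1 TPM) were present in every library. The aromatase gene CYP19A1 reached 0.02 TPM at most, AMHR2 0.17 TPM and NR5A1 0.42 TPM, and FOXL2 lay between 0.32 and 1.19 TPM, so defining granulosa genes were at or near 0. Keratins were abundant, with medians of 2044 TPM for KRT19 and 1096 TPM for KRT7. The macrophage genes TYROBP and AIF1 were at 0 in all 32 libraries, and CD163 reached 0.02 TPM, while CD68 had a median of 21.8 TPM (13.2 to 29.6), CD14 of 7.68 TPM (2.2 to 13.0), and LYZ reached 2.14 TPM. One library stood apart. The control library of vial 3 at 12 weeks held 919 counts over 6 liver transcripts (AFP, AHSG, ALB, APOB, GPC3 and AMBP, chosen from a list of 15 after their values were seen), against 0 or 1 in the 8 control and 0.01 µM libraries at 6 weeks and 72 to 174 in the other 23 libraries. Changes of the control over time are given below with and without that library for ABCA1, APOE, SCARB1 and MYLIP. Most other values that use it, also those of the pathway lists, are given with it only.

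Levels of the genes can be compared with each other only per transcript length, as TPM. NPC2 was the most abundant of the 9, with a median of 295 TPM over the 32 libraries (range 266 to 350). SCARB1 followed with 47.3 TPM (34.4 to 56.0). NPC1 (25.2 TPM, 19.97 to 28.1), SOAT1 (24.2 TPM, 15.8 to 31.0) and MYLIP (19.6 TPM, 16.9 to 24.5) came next, and the ranges of these 3 over the libraries overlapped. The group means of NPC1 (23.0 to 26.6 TPM) lay above those of MYLIP (18.3 to 21.9 TPM). Those of SOAT1 (20.5 to 28.1 TPM) overlapped both, so its place in the order is not fixed. APOE had 10.2 TPM (5.75 to 13.7) and ABCA1 5.00 TPM (3.24 to 6.84), and these ranges also overlapped. Their group means did not (7.54 to 11.2 and 3.72 to 6.22 TPM). ABCA1 was the most abundant of the 3 efflux transporters. ABCG4 (0.13 TPM, 0.05 to 0.26) and ABCG1 (0.06 TPM, 0 to 0.18) were close to the limit of detection. ABCG1 had 0 to 6 counts per library and ABCG4 2 to 11, and at this depth a count of 0 leaves room for up to 3.

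**Figure D1:**
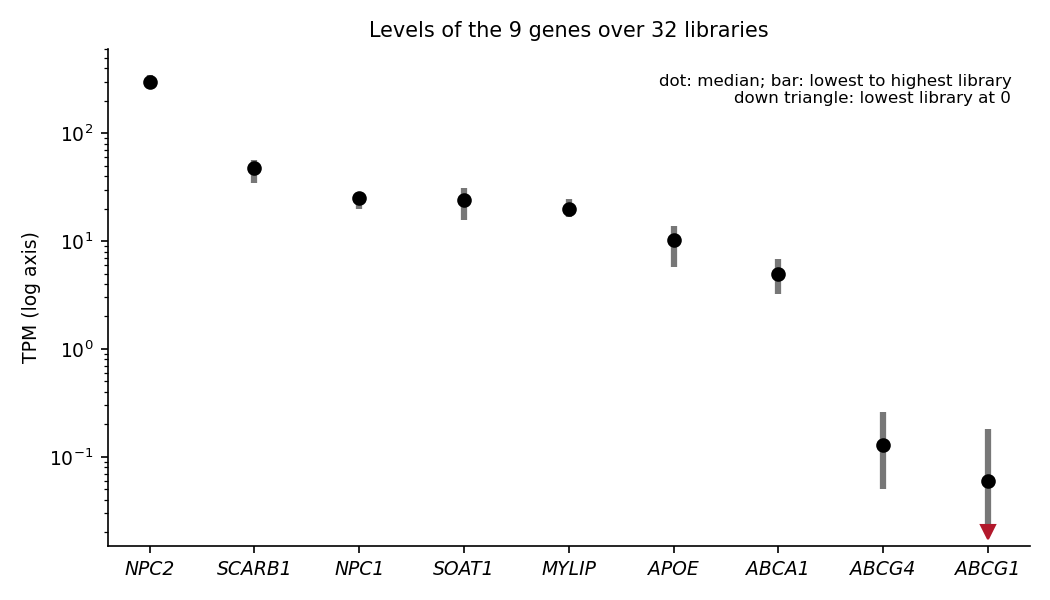
Transcript levels of the 9 genes in TPM on a log axis, with the median over 32 libraries as a dot and the lowest to highest library as a bar. NPC2 lies highest with a median of 295 TPM, and ABCG4 and ABCG1 lie lowest with 0.13 and 0.06 TPM.

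For the genes that moved most clearly, ABCA1 and SOAT1, the 250 bases before the annotated start are printed to show what the promoters of these 2 genes do and do not share. They are RefSeq sequence of GRCh38.p14, read on the gene's strand, and 7 of the 9 genes had such a window. ABCA1 lies on chromosome 9 (104781006 to 104928155, minus strand) and its window is chr9:104928156-104928405. SOAT1 lies on chromosome 1 (179293797 to 179358680, plus strand) and its window is chr1:179293547-179293796. Both windows are in capitals only where they match 1 of 3 motifs, searched on both strands: the half-site AGGTCA repeated in the same direction after a gap of 4 bases, with up to 2 mismatches (the direct repeat DR4, which LXR with its partner RXR binds), the E-box CACGTG and the TATA box TATAAA.
ABCA1: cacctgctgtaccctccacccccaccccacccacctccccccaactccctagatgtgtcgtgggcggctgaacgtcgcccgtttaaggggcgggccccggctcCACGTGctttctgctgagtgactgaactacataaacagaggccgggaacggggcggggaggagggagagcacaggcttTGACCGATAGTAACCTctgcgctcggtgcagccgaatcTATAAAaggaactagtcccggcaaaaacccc
SOAT1: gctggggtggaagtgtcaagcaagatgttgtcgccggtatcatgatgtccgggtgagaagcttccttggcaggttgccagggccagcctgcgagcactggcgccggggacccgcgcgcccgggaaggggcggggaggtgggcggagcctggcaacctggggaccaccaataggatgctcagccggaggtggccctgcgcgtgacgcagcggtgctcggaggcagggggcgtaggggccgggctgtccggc
The ABCA1 window holds 1 match to each motif, and none of the 3 overlaps another. Its DR4 match has 2 mismatches, lies on the strand opposite to the gene and spans bases 69 to 54 before the start. Such a match occurs in 2.03% of 35116 windows of this length, CACGTG in 6.34% and TATAAA in 10.7%. The SOAT1 window has no match to any of the 3. It holds 2 copies of the GC box GGGCGG (in 42.6% of windows) and 1 of CCAAT (in 11240 of the 35116 windows), and the ABCA1 window holds 3 and 0. Among the 7 windows, ABCA1 had the only DR4 match.

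None of the 7 genes with enough counts for the test was called in any comparison of PFOS with control. A call means a Benjamini-Hochberg adjusted p of at most 0.05 in edgeR's quasi-likelihood test over all genes. At 6 weeks, 0 of the 7 were called at 0.01, 0.1 and 1 µM, where 0%, 4.24% and 0.280% of 12836 genes were. At 12 weeks, 0 of the 7 were called at each concentration, where 0%, 1.07% and 0.220% of 12742 genes were. With so few genes called in all, 0 of 7 is close to the background. The smallest adjusted p among the 42 tests was 0.149, for NPC2 at 0.1 µM after 6 weeks. Before adjustment, 3 of the 42 had p under 0.05, namely MYLIP and NPC2 at 0.1 µM after 6 weeks and MYLIP at 0.01 µM after 12 weeks. The log2 fold changes ran from -0.40 (APOE, 0.1 µM, 12 weeks) to 0.20 (MYLIP, 0.01 µM, 12 weeks).

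Between 6 and 12 weeks of culture, by contrast, ABCA1 and SOAT1 fell in the control and at all 3 concentrations. In the control, 2 of the 7 genes were called, against 36.6% of 12988 genes. At 0.01 µM 4 of 7 were called, against 42.7%. At 0.1 µM 3 of 7 were called, against 40.3%, and at 1 µM 2 of 7, against 30.0%. The shares of the 7 were 28.6%, 57.1%, 42.9% and 28.6%, on both sides of the background, and nothing is read from them about the list. Of the 11 calls, 10 were lower at 12 weeks. Genes called lower made up 19.3%, 21.3%, 20.6% and 15.9% of all genes in the same 4 comparisons. Over all genes, 9.86% were called lower in all 4 comparisons and 6.67% higher in all 4. Among the 7, these were 2 and 0. In bulk RNA, fewer cells of a type and less RNA per cell cannot be told apart.

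**Figure D2:**
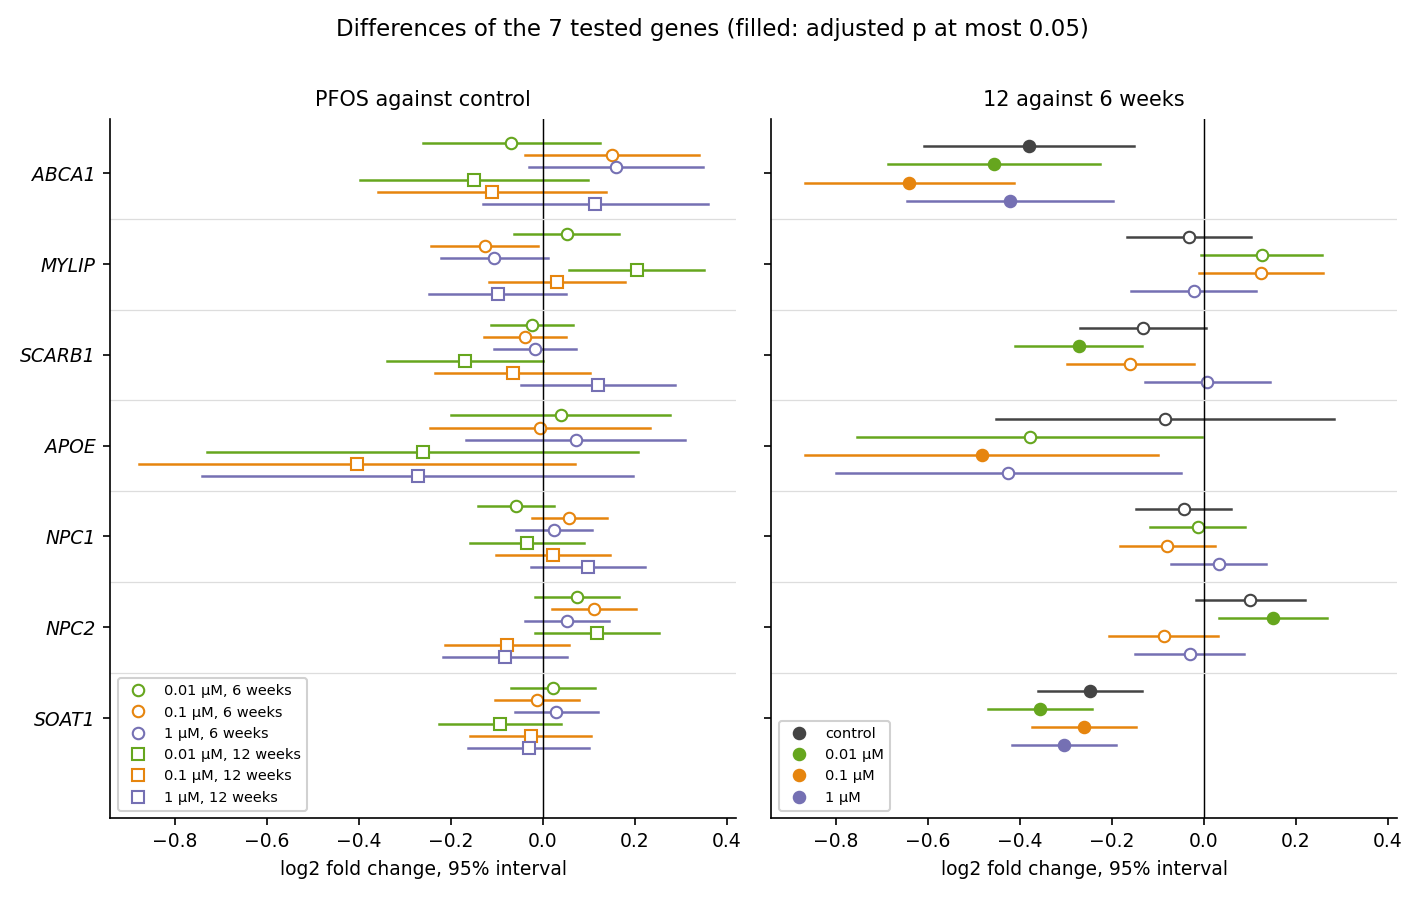
Log2 fold changes with 95% intervals for the 7 tested genes, PFOS against control at left (circles 6 weeks, squares 12 weeks) and 12 against 6 weeks at right. Filled symbols have an adjusted p of at most 0.05: none at left, and at right all 4 comparisons for ABCA1 and SOAT1 and 1 each for SCARB1, APOE and NPC2.

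ABCA1, the main exporter of cholesterol to lipid-poor apolipoproteins, was lower at 12 than at 6 weeks in every culture. After 6 weeks the control libraries of vials 1 to 4 held 39.3, 40.9, 36.4 and 32.3 CPM, where CPM are counts scaled to library size by TMM. At 0.01 µM the 4 vials held 39.2, 36.8, 35.1 and 30.9 CPM. The values at 0.1 µM were 40.5, 43.0, 45.0 and 37.0 CPM, and those at 1 µM were 45.9, 40.5, 43.7 and 36.1 CPM. All PFOS groups at 6 weeks overlapped the control, and vial 4 was the lowest in each. After 12 weeks the control libraries held 27.9, 24.2, 34.1 and 28.2 CPM. The 0.01 µM libraries held 27.8, 24.9, 27.3 and 23.5 CPM. The libraries with 0.1 µM held 24.1, 27.6, 31.7 and 22.7 CPM, and those with 1 µM held 33.2, 34.8, 31.0 and 25.2 CPM. Vial 4 was again the lowest except in the control, so it was lowest in 7 of the 8 groups. The 12-week values lay below all 6-week values of the same concentration except in the control, where vial 3 at 12 weeks (34.1 CPM) exceeded vial 4 at 6 weeks (32.3 CPM). Within a vial, the 12-week library was the lower one in 16 of 16 pairs.

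The fall of ABCA1 from 6 to 12 weeks was -0.38 on the log2 scale in the control (SE 0.11, adjusted p = 0.00849 by edgeR). At 0.01 µM it was -0.46 (SE 0.11, adjusted p = 0.0018). At 0.1 µM it was -0.64 (SE 0.11, adjusted p = 4.19e-05) and at 1 µM -0.42 (SE 0.11, adjusted p = 0.00425). In percent, ABCA1 fell by 23.1 in the control and by 35.8 at 0.1 µM, the smallest and the largest of the 4 changes. That these differ was not shown: the 0.1 µM effect at 12 weeks minus that at 6 weeks was -0.26, with a 95% interval of -0.58 to 0.06 and an adjusted p of 0.458. Groups that did not overlap, as for ABCA1 with PFOS, made up 30.6%, 36.4% and 28.3% of genes at 0.01, 0.1 and 1 µM. The call in the control was lost without vial 1 (adjusted p = 0.0842) or without vial 2 (0.169). Without the control library of vial 3 at 12 weeks the control fell by 0.48 (adjusted p = 0.00184).

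Against control, ABCA1 differed by -0.07 (adjusted p = 0.86), 0.15 (0.368) and 0.16 (0.454) on the log2 scale at 0.01, 0.1 and 1 µM after 6 weeks. At 0.1 µM it was above the control of its own vial in 4 of 4 vials, and at 1 µM in 3 of 4. After 12 weeks the differences were -0.15 (0.743), -0.11 (0.689) and 0.11 (0.809). The 95% intervals of the 6 differences together ran from -0.40 to 0.36.

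**Figure D3:**
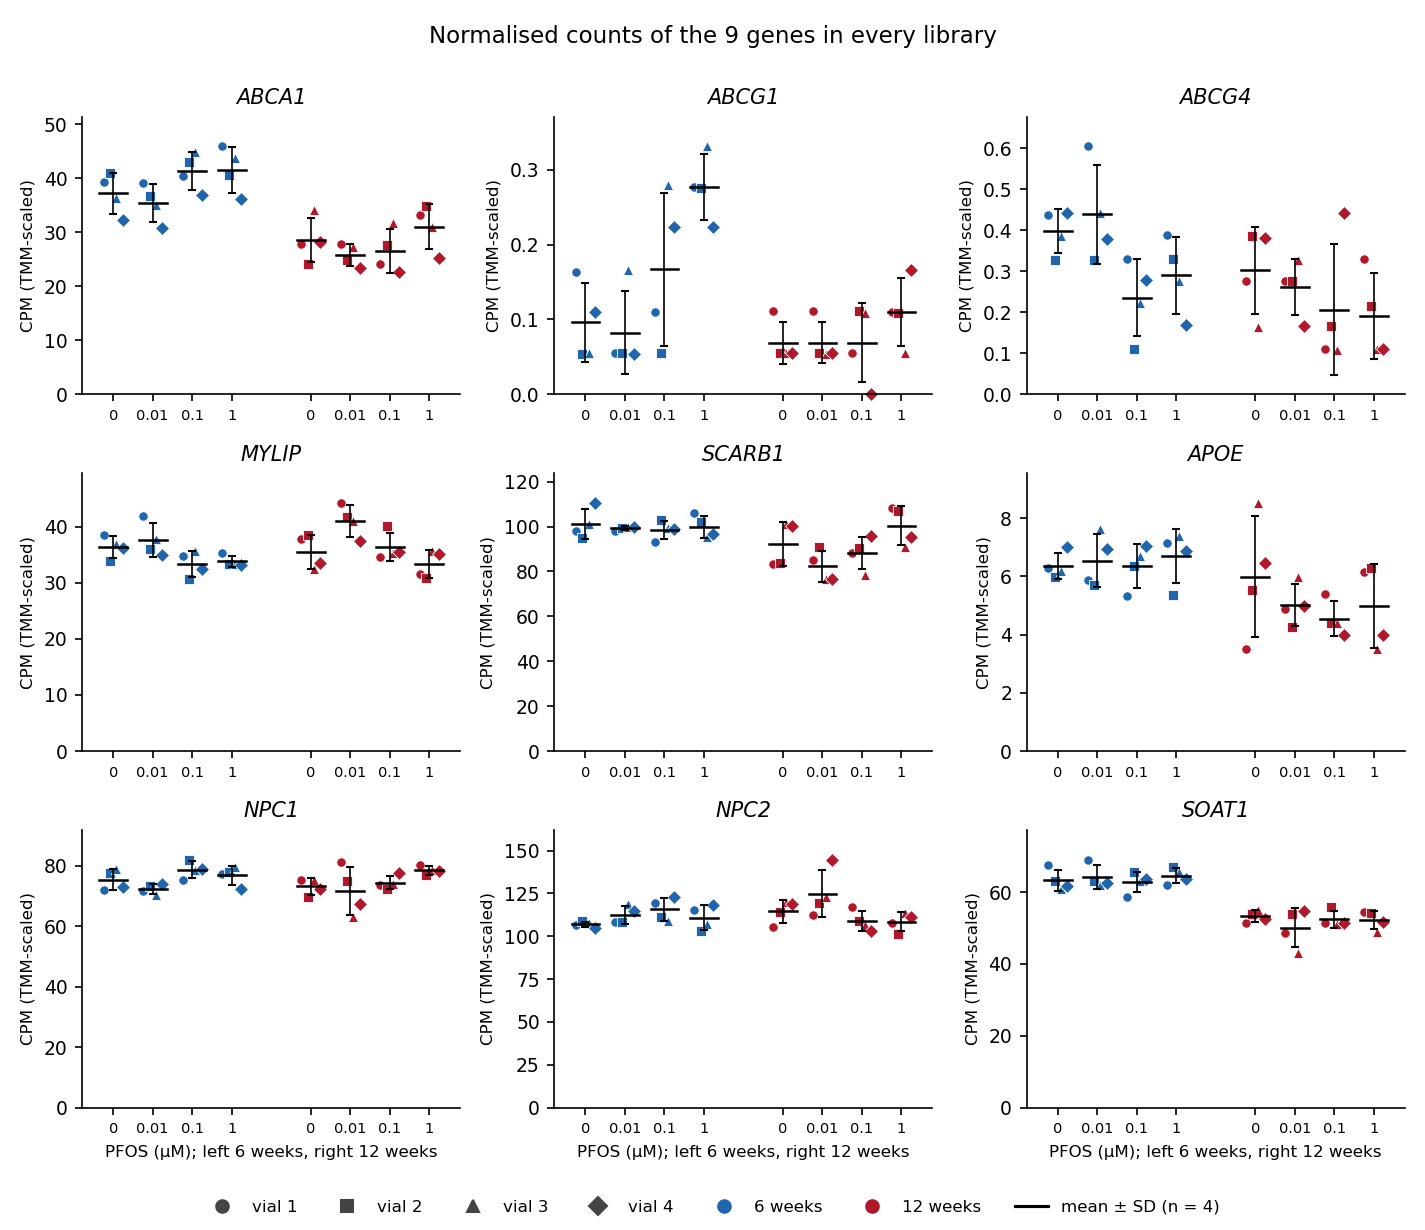
TMM-scaled CPM of the 9 genes in each of the 32 libraries, by PFOS concentration at 6 weeks (blue) and 12 weeks (red), with 1 symbol per vial and the mean ± SD of n = 4 in black. ABCA1 and SOAT1 lie lower at 12 weeks, and the other panels show groups that mostly overlap.

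ABCG1, which passes cholesterol to mature high-density lipoprotein, had too few counts for the test across genes. The 1 µM libraries at 6 weeks held 5, 5, 6 and 4 counts, and the control libraries 3, 1, 1 and 2. The sums of 20 and 7 counts gave a ratio of 2.88 (95% interval 1.17 to 8.06, counting error only), and the groups did not overlap, as in 6.47% of the genes with at least 8 counts in these libraries. An exact two-sided permutation test gave p = 0.0286, the smallest that 4 against 4 libraries allow, and 0.19 after adjustment over 20 tests of ABCG1 and ABCG4. At 0.1 µM the counts were 2, 1, 5 and 4, and at 0.01 µM 1, 1, 3 and 1, both overlapping the control. After 12 weeks every group held 0 to 3 counts per library, and the 1 µM group (2, 2, 1 and 3) overlapped the control (2, 1, 1 and 1). The 1 µM effect at 12 weeks minus that at 6 weeks was -0.845 on the log2 scale (SE 0.934). Its adjusted p was 0.886 by edgeR without the filter on low counts, so a difference between the times was not shown. From 6 to 12 weeks at 1 µM the sum went from 20 to 8 counts, with p = 0.0286 by the exact permutation test and 0.19 after adjustment. ABCG1 with 1 µM at 6 weeks thus failed the correction, on counts too low for a firm statement.

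ABCG4, the close relative of ABCG1 that is best known from the brain, did not pass the correction in any comparison either. Its sums of 4 libraries after 6 weeks were 29 in the control and 32, 17 and 21 at 0.01, 0.1 and 1 µM. After 12 weeks they were 22, 19, 15 and 14. The groups separated once, at 0.01 µM, where 6 to 11 counts at 6 weeks became 3 to 6 at 12 weeks on CPM that did not overlap, as in 30.6% of genes (ratio 0.589, 95% interval 0.315 to 1.07, exact permutation p = 0.0286, adjusted p = 0.19). The smallest p against control was 0.0571, at 0.1 µM after 6 weeks.

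APOE, which accepts exported cholesterol and binds lipoprotein receptors, was called in 1 comparison. Control libraries held 6.29, 5.99, 6.17 and 7.01 CPM after 6 weeks and 3.49, 5.52, 8.52 and 6.44 CPM after 12 weeks. The SD went from 0.447 to 2.09 CPM in the control and from 0.918 to 1.44 CPM at 1 µM, and from 0.913 to 0.719 CPM and 0.746 to 0.604 CPM at 0.01 and 0.1 µM. The highest of these 8 values (8.52 CPM, 156 counts) belongs to the library with 919 counts of liver transcripts, and the part of that material in APOE was not tested. At 0.1 µM the libraries held 5.31, 6.35, 6.70 and 7.03 CPM after 6 weeks and 5.40, 4.39, 4.41 and 3.97 CPM after 12 weeks, a change of -0.48 on the log2 scale (SE 0.19, adjusted p = 0.0398). This was the only APOE comparison called, and the groups overlapped through vial 1. At 0.01 and 1 µM the changes were -0.38 (adjusted p = 0.0975) and -0.42 (0.0788), and in the control -0.09 (0.741). Without the control library of vial 3 at 12 weeks, the control changed by -0.30 (0.187) and the change at 1 µM passed (adjusted p = 0.046). The call at 0.1 µM was lost without vial 2, 3 or 4 (adjusted p 0.0708 to 0.251) and without the filter on low counts (0.0572). Against the 12-week control, APOE at 0.01, 0.1 and 1 µM differed by -0.26, -0.40 and -0.27, with adjusted p of 0.768, 0.402 and 0.749 and a 95% interval of -0.88 to 0.07 for the largest. Leaving out 1 vial or that control library moved the 3 differences between -0.44 and -0.04, between -0.68 and -0.17, and between -0.58 and 0.09.

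The uptake receptor SCARB1 held steady at 6 weeks, with group means of 101, 99.3, 98.6 and 100.0 CPM in the control and at 0.01, 0.1 and 1 µM. After 12 weeks the means were 92.2 ± 9.88, 82.3 ± 7.02, 88.3 ± 7.22 and 100.5 ± 8.56 CPM (SD, n = 4). At 0.01 µM the 12-week libraries held 85.1, 90.9, 76.6 and 76.6 CPM and the 6-week libraries 98.1, 99.6, 100.0 and 99.7 CPM. These groups did not overlap, as in 30.6% of genes, and SCARB1 fell by 0.27 on the log2 scale (SE 0.07, adjusted p = 0.00154). At 1 µM the change was 0.01 with a 95% interval of -0.13 to 0.14. The change in the control was -0.13 (adjusted p = 0.121) and that at 0.1 µM -0.16 (0.0579). Both passed without the control library of vial 3 at 12 weeks (0.0451 and 0.0445). In the 12-week control, vials 1 and 2 held 83.5 and 83.7 CPM and vials 3 and 4 101 and 100.4 CPM, so the spread of that group does not come from vial 3 alone. The 0.01 µM group at 12 weeks against its control gave -0.17 (adjusted p = 0.591).

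MYLIP, the ligase that limits lipoprotein uptake, was not called in any comparison. After 6 weeks it held 38.4, 33.8, 37.0 and 36.2 CPM in the control, and 34.7, 30.6, 35.7 and 32.4 CPM at 0.1 µM. The 0.1 µM library was the lower one in 4 of 4 vials, with a difference of -0.13 on the log2 scale (unadjusted p = 0.034, adjusted p = 0.197 by edgeR). At 1 µM it was also lower in 4 of 4 vials, by -0.11 (adjusted p = 0.418). After 12 weeks the order was another one: at 0.01 µM MYLIP held 44.2, 41.7, 41.0 and 37.4 CPM against 37.8, 38.5, 32.4 and 33.5 CPM in the control. The 0.01 µM library was higher in 4 of 4 vials, by 0.20 (unadjusted p = 0.00848, adjusted p = 0.565). From 6 to 12 weeks MYLIP changed by -0.03 to 0.13 in the 4 conditions, and its largest group mean exceeded its smallest by a ratio of 1.23.

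Of the lysosomal pair, NPC1, the membrane protein, was the steadiest of the 9 genes. Its 8 group means lay between 71.6 and 78.6 CPM, a ratio of 1.097, and the median CV within groups was 3.71%. It was called in no comparison, and its changes from 6 to 12 weeks ran from -0.08 to 0.03 on the log2 scale. At 1 µM after 12 weeks, the libraries held 80.2, 76.8, 78.7 and 78.3 CPM and the control 75.3, 69.5, 75.4 and 72.4 CPM. These groups did not overlap, as in 6.20% of genes, and the difference of 0.10 had an adjusted p of 0.657. NPC2, the soluble partner that hands cholesterol to NPC1 inside the lysosome, was called once. At 0.01 µM it held 108, 108, 119 and 115 CPM after 6 weeks and 113, 119, 123 and 145 CPM after 12 weeks. It rose there by 0.15 (SE 0.06, adjusted p = 0.035), in 4 of 4 vials, and the highest value was that of vial 4. Without vial 4 the rise was 0.08 (adjusted p = 0.296), and the call was also lost without vial 2 (0.084). In the control NPC2 changed by 0.10 (adjusted p = 0.178), and at 0.1 and 1 µM by -0.09 (0.241) and -0.03 (0.735). At 0.1 µM after 6 weeks NPC2 was above the control in 4 of 4 vials, by 0.11 (unadjusted p = 0.0192, adjusted p = 0.149).

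SOAT1, which esterifies cholesterol in the endoplasmic reticulum, split the libraries into 2 sets by time. After 6 weeks the control libraries held 67.5, 63.1, 60.7 and 61.6 CPM. The libraries with 0.01, 0.1 and 1 µM lay between 58.8 and 69.0 CPM. After 12 weeks the control libraries held 51.3, 54.0, 55.1 and 52.6 CPM, and the libraries with PFOS lay between 43.0 and 55.9 CPM. The lowest of the 16 libraries at 6 weeks thus exceeded the highest of the 16 at 12 weeks. That SOAT1 was lower at 12 weeks in 16 of 16 pairs of the same vial follows from this. The share of all genes split in this way was not counted. It fell by 0.25 in the control on the log2 scale (SE 0.06, adjusted p = 0.000619), by 0.36 at 0.01 µM (SE 0.06, adjusted p = 3.6e-06), by 0.26 at 0.1 µM (SE 0.06, adjusted p = 0.000308) and by 0.30 at 1 µM (SE 0.06, adjusted p = 6.7e-05). In percent, the 4 falls ran from 15.8 to 21.9. Separate groups as in the control occurred in 28.7% of genes. The 4 calls were kept without any 1 vial and under all other alternatives run. With PFOS, SOAT1 differed from control by -0.09 to 0.03, and the 95% intervals of the 6 differences ran from -0.22 to 0.12. The smallest fall over time, that in the control, had a 95% interval of -0.36 to -0.13, which overlaps that range.

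Whether the PFOS effect differed between the time points was tested as an interaction over all 32 libraries. None of the 21 tests was called, where 0%, 0.208% and 0.123% of genes were at 0.01, 0.1 and 1 µM. The smallest adjusted p was 0.277, for NPC2 at 0.1 µM, whose effect was lower by 0.19 on the log2 scale at 12 than at 6 weeks (95% interval -0.36 to -0.02, unadjusted p = 0.0287). For APOE the 3 differences ran from -0.40 to -0.29, with wide intervals (-0.93 to 0.23 together).

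Other genes of the same pathways were taken from lists chosen by known function. Of 14 LXR targets outside the 9 genes, 11 were tested. From 6 to 12 weeks, 4 of the 11 were called lower in all 4 comparisons, against 9.86% of all genes. Among them were LPCAT3, which remodels phospholipids (-0.27 to -0.44 on the log2 scale), SMPDL3A, a secreted phosphodiesterase (-0.70 to -1.04), and the apolipoprotein gene APOC1 (-0.82 to -1.31). SREBF1, which encodes the lipogenic factor SREBP1, rose in all 4 (0.24 to 0.50), so the LXR targets did not move in 1 direction. The calls of LPCAT3, SMPDL3A and APOC1 were kept in all 40 refits with other settings or without 1 vial, and those of SREBF1 were lost in 6 of 40. With the vial as replicate block, SREBF1 at 0.1 µM missed the threshold (adjusted p = 0.0544). The median change over the 11 targets was -0.01 in the control and -0.41, -0.38 and -0.22 at 0.01, 0.1 and 1 µM, beside medians of 0.00 to 0.01 over all genes. None of the 11 was called for a difference of the PFOS effect between the times, where at most 0.208% of all genes were. NR1H2, which encodes LXRβ, fell in all 4 (-0.18 to -0.26), and NR1H3, which encodes LXRα, was called in none.

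With PFOS, 3 of the 11 LXR targets rose at 0.1 µM after 6 weeks, where 4.24% of all genes were called. SCD, a fatty acid desaturase, rose by 0.64 on the log2 scale (454 ± 58.9 to 709 ± 42.8 CPM, adjusted p = 0.0396). SREBF1 rose by 0.37 (adjusted p = 0.0281) and the ABC transporter gene ABCA5 by 0.32 (adjusted p = 0.0211). The calls of SCD and ABCA5 were lost whichever of the 4 vials was left out, with adjusted p between 0.0539 and 0.233, and that of SREBF1 was lost without vial 1, 3 or 4 (0.0781 to 0.182). In 1 fit of all 32 libraries the calls of ABCA5 (0.0724) and SREBF1 (0.0723) were lost too.

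Among 9 tested lipoprotein receptors and uptake adaptors, LRP1, the receptor for APOE-bearing remnants, fell in all 4 comparisons of 12 with 6 weeks (-0.71 to -1.02), and LRP8 fell less (-0.15 to -0.34). LRP1 and LRP8 were the 2 of the 9 called lower in all 4 (22.2%, beside 9.86% of all genes). The calls of LRP8 were lost in 4 of 40 refits, all in 1 comparison, and those of LRP1 in 0. Among 17 genes of sterol transport between organelles, 6 fell in all 4 comparisons over time, where 9.86% of all genes did. GRAMD1B, a protein of membrane contact sites that takes sterol from the plasma membrane, fell by 1.14 to 1.69 on the log2 scale. STARD4, a carrier of sterol through the cytosol, was the gene of this list called with PFOS (0.16 at 0.1 µM after 6 weeks, adjusted p = 0.036). That is 5.88% of the 17, close to the 4.24% of all genes called in that comparison. The STARD4 call was lost whichever vial was left out (0.0566 to 0.263) and in 1 fit of all 32 libraries (0.221). Of 11 genes of cholesterol esters and lipid droplets, PLIN2, a coat protein of lipid droplets, fell in all 4 (-0.51 to -0.63). DGAT2, an enzyme of triglyceride synthesis, rose in all 4 (0.27 to 0.40). Each is 9.09% of this list, where 9.86% of all genes fell and 6.67% rose in all 4. These shares are close to the background, and nothing is read from them about the list.

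Of 20 genes of cholesterol synthesis under SREBP2, 5 were called lower over time in the control and 11, 17 and 7 at 0.01, 0.1 and 1 µM, where 19.3%, 21.3%, 20.6% and 15.9% of all genes were, and SREBF2 itself rose at 1 µM. DHCR7, EBP, NSDHL and SC5D, enzymes of the last steps of the pathway, fell in all 4. The median change was -0.02 in the control and -0.22, -0.34 and -0.08 at 0.01, 0.1 and 1 µM. None of the 20 was called for a difference of the PFOS effect between the times. With PFOS, MSMO1 was the only 1 of the 20 called (0.35 at 0.1 µM after 6 weeks, adjusted p = 0.0124). That is 5% of the list, close to the 4.24% of all genes called in that comparison. The MSMO1 call was lost without vial 3 or 4 (0.103 and 0.0962) and in 1 fit of all 32 libraries (0.111). Of 8 genes that turn cholesterol into steroids, CYP11A1, the enzyme that cleaves the cholesterol side chain, fell by 1.76 to 2.95 from 6 to 12 weeks. HSD3B1, which makes progesterone, fell by 1.05 to 1.51, and NR5A2, a nuclear receptor that drives these genes, by 1.19 to 2.11. These 3 were the genes called lower in all 4 comparisons, where 9.86% of all genes were. The calls of NR5A2 were lost in 4 of 36 refits, over 3 of the comparisons. Those of CYP11A1 (36 refits) and HSD3B1 (40 refits) were lost in 0. The other refits gave no value for CYP11A1 and NR5A2. Levels of these 3 genes are not given here, and how far their changes rest on low counts was not tested. FDXR, a reductase that supplies electrons for CYP11A1, rose in all 4 (0.23 to 0.55), and FDX1, its electron carrier, rose in the control (0.21, adjusted p = 0.0155). STAR, which brings cholesterol into mitochondria, fell at all 3 PFOS concentrations (-0.92 to -1.15) and changed by -0.29 in the control (adjusted p = 0.287). None of the 8 was called with PFOS or for a difference of the PFOS effect between the times. A fall of STAR that differs from that in the control was thus not shown.

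**Figure D4:**
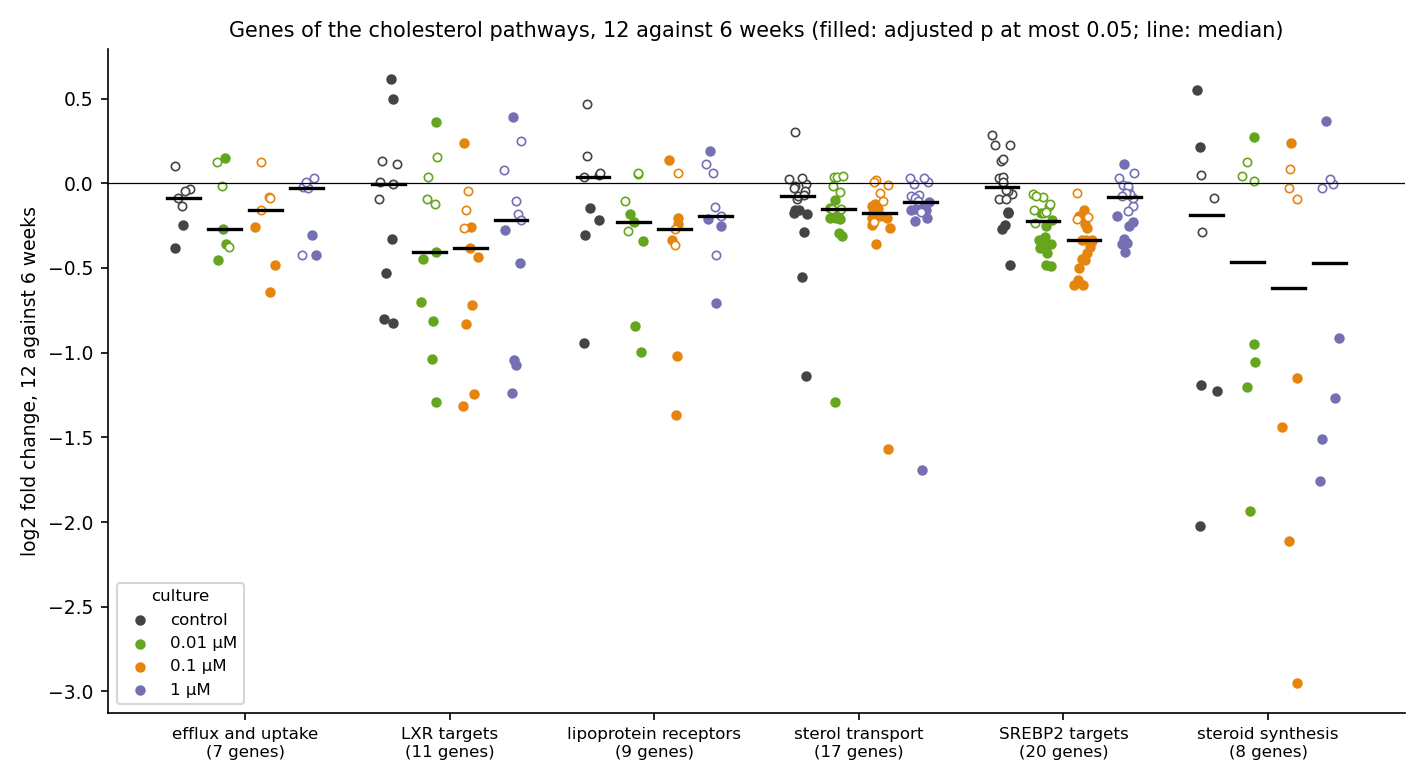
Log2 fold changes from 6 to 12 weeks of the tested genes in 6 lists, by culture (control and 3 PFOS concentrations), with called genes filled and the median of each list as a black line. The efflux and uptake genes reach -0.64 (ABCA1), sterol transport genes -1.69 (GRAMD1B) and steroid synthesis genes -2.95 (CYP11A1). Changes are drawn without the level of each gene.

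Over the 32 libraries, the genes whose log2(CPM + 1) was most like that of ABCA1 were RAB27A (Pearson r = 0.929), NCOA7 (0.928) and FNDC3B (0.927), out of 10653 genes with a mean of at least 5 CPM. Within the 16 libraries of 1 time point these correlations were 0.707 to 0.836. For MYLIP the highest values were lower: BRD2 0.702, DHPS 0.675 and SUN2 0.672. The gene most like SOAT1 was GPR137C (0.923, and 0.663 within each time). For the others these were PRAG1 for SCARB1 (0.924), HLA-E for APOE (0.859), COPZ1 for NPC2 (0.820) and CNTNAP1 for NPC1 (0.761). Among the 9 themselves, ABCA1 and SOAT1 had the highest correlation (0.752), which was 0.233 within the 6-week and 0.079 within the 12-week libraries. All of these are descriptions across libraries that share vials, time points and scaling.

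Marker genes of other cell types moved with time as well, and their part in the results above was not tested. Of 9 macrophage markers, 3 had over 1 CPM, and the summed level was 29.96 to 39.0 CPM over the 16 libraries at 6 weeks and 19.2 to 31.7 CPM at 12 weeks. CD14, 1 of 3 tested, was called lower in all 4 comparisons, as were 9.86% of all genes, and TYROBP and AIF1 were at 0. Of 9 epithelial and endothelial markers, 5 were called lower in all 4 (CDH1, KRT7, PECAM1, KDR and TEK), where 9.86% of all genes were. Of these 5, only KRT7 was abundant (median 1096 TPM). The medians of PECAM1, CDH1, TEK and KDR were 0.08, 0.63, 1.245 and 1.86 TPM. The summed level of the 9 was 2462 to 2867 CPM at 6 weeks and 2134 to 2651 CPM at 12 weeks. That sum includes KRT19 (median 2044 TPM), which did not fall (0.01 to 0.20 on the log2 scale). Of 9 genes of theca and stroma, 8 had values, 5 were tested and 2 were called lower in all 4. Their summed level was 1958 to 2478 CPM at 6 weeks and 1714 to 2737 CPM at 12 weeks. The granulosa markers summed to 289 to 325 CPM at 6 weeks and 267 to 302 CPM at 12 weeks, and 0 of the 9 tested were called in all 4. Of 8 oocyte markers, 5 had values, and BMP15 and DDX4 were at 0 throughout. ZP3 of the same list was present in every library, with a median of 28.6 TPM (22.7 to 35.0), while GDF9 reached 0.5 TPM at most and ZP1 0.09 TPM.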

How the data were processed

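The authors aligned reads of stranded poly(A) libraries and deposited RSEM expected counts and TPM per gene. The submitters' processing notes name HISAT2 2.0.4, Bowtie2 2.2.5, RSEM 1.2.8 and GRCh38.p14. The deposited expected counts, of which 7.675% were not whole, were rounded. TPM served only to compare levels between genes. The deposited FPKM and normalized tables were not used here.

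Counts were scaled by TMM and tested with the quasi-likelihood test of edgeR 4.0.16 (R 4.3.3) after its default filter on low counts, with Benjamini-Hochberg adjustment over all genes tested. PFOS was compared with control in the 16 libraries of each time point, and time and its interaction with PFOS in 1 fit of 32 libraries. ABCG1 and ABCG4 failed the filter and were compared by exact two-sided permutation of mean log2(CPM + 1), with conditional exact intervals of the count ratio. Intervals of counts cover counting error only. DESeq2 1.42.0, other filters, a block for vial and leaving out libraries were alternatives. The script was tested on simulated data.

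The members and lists were chosen with earlier results of these data known. From each list, up to 4 called genes per comparison with the lowest adjusted p were named, and STAR, NR1H3 and SREBF2 were named after their values were seen. Some genes of these lists are not reported here. Per the labels, replicate numbers stand for the 4 thawed vials, each divided over the groups. Deviations from group means correlated weakly between same-numbered libraries, with mean r of 0.0549 to 0.124 between groups at 6 weeks, -0.160 to 0.154 at 12 weeks and 0.0294 to 0.0931 across times. No 2 of the 48 replicate pairs held identical counts, and each differed by more than counting noise (chi-square per degree of freedom 2.3 to 16.2). All vials hold 1 cell line, so p-values cover the spread between vials of that line.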

Additional observations from a re-analysis of the deposited data

Results flagged for a closer look

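The level of 1 library stood apart from the other 3 of its group in 6 of 72 groups tested by Dixon's criterion, where chance gives about 1 in 20. For ABCG1 these were 0.166 CPM at 0.01 µM after 6 weeks and, after 12 weeks, 0.111 CPM both with solvent alone and at 0.01 µM, each a library with 2 or 3 counts beside libraries with 1. For MYLIP they were 35.3 CPM at 1 µM after 6 weeks, beside 33.2 to 33.4 CPM, and 40.1 CPM at 0.1 µM after 12 weeks, beside 34.6 to 35.4 CPM. For SOAT1 the value was 55.9 CPM at 0.1 µM after 12 weeks, beside 51.2 to 51.3 CPM. The rate of 1 in 20 holds for continuous values. Counts of 1 beside a 2 or 3, as in the ABCG1 groups, give such a flag by themselves. Nothing is thus read from the number of flags.

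For the liver transcript ALB the effect of 0.1 µM PFOS differed between the time points by -7.91 on the log2 scale (adjusted p = 0.0386 by edgeR), a fitted value that depends on the prior count because the control libraries at 6 weeks held 0 or 1 counts of it. That call was lost without vial 1, 2 or 4 (adjusted p 0.073 to 0.467) and without the filter on low counts (0.0512). Without vial 3 the difference was -6.12 (adjusted p = 0.00141), and without only the control library of vial 3 at 12 weeks it was -6.42 (5.78e-06). ALB was called at 0.1 and 1 µM against control after 6 weeks. Its 12-week control held 1.39, 2.10, 14.7 and 1.86 CPM.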

How the results depend on the processing

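No member was called with PFOS, or for a difference of the PFOS effect between the times, under any alternative. Of 973 member values recomputed, 39 changed sign, and 0 of these were called in either fit. In the 12 against 6 week comparison of the control, 1 member was called without vial 1 or without vial 2, and the leave-out range was 1 to 3. Among the named values, the sign turned in 11 of 419, each with 1 vial or library left out. Against the 12-week control at 1 µM, leaving out 1 vial moved ABCA1 between -0.0189 and 0.2166 on the log2 scale and APOE between -0.5774 and 0.0876. From 6 to 12 weeks it moved MYLIP between -0.1052 and 0.0173 in the control and between -0.0636 and 0.0213 at 1 µM. It moved SCARB1 at 1 µM between -0.0172 and 0.0309, APOE in the control between -0.3181 and 0.0977, and NPC1 at 0.01 µM between -0.0793 and 0.0296. Without only the control library of vial 3 at 12 weeks, MYLIP in the control was 0.0092. Leaving out 1 vial moved the ABCG1 ratio of 2.88 between 2.35 and 3.79.

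Counts over all genes moved more. The 544 genes called at 0.1 µM after 6 weeks ranged from 22 to 739 over the alternatives, and the 36 at 1 µM from 5 to 178. After 12 weeks the 136 at 0.1 µM ranged from 4 to 540 and the 28 at 1 µM from 8 to 162. At 0.01 µM the count of 0 became at most 6 after 6 weeks and 4 after 12 weeks, and 1232 and 1080 genes had an unadjusted p under 0.05. The 27 and 16 differences between times at 0.1 and 1 µM ranged from 1 to 142 and from 1 to 76. The cause was not tested. With the vial as replicate block 0 members were called with PFOS, as without it, and the pairing changed no call of a member.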
